A study of Macaca mulatta with 6 samples.

Results

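Splicing factor genes were examined in RF/6A cells, a rhesus macaque (Macaca mulatta) line cultured from the choroidal and retinal endothelium. The set holds 65 of the 24941 genes in the table and was defined by a rule on gene symbols. The rule takes every gene whose symbol matches and uses no measured value. It leaves out members of these families that carry another symbol or none. It takes the SR proteins (SRSF and TRA2 symbols, 14 genes), the hnRNP proteins (HNRNP symbols, 17 genes) and core proteins of the spliceosome (34 genes: 11 SNRP, 9 SF3A and SF3B, 1 U2AF and 13 PRPF symbols). The treated cells received 50% normal human serum for 4 hours, in which complement is active and may form the membrane attack complex, a pore made of complement proteins in the cell membrane. Control cells of the same line received 50% heat-inactivated human serum for the same time, in which complement had been inactivated. There were 3 libraries of polyadenylated RNA per serum, 6 in all, from confluent cells on porous culture inserts. The comparison asks how transcript levels of this line differ between active and inactivated serum. Heating changes more in serum than complement, so the effect of complement and that of other heat-sensitive serum components cannot be told apart. Whether the replicates came from separate cultures is not stated in the labels, so every p-value reflects library-to-library spread that may be purely technical. In RNA from whole cultures, fewer cells of a kind and less RNA per cell cannot be told apart either.

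Splicing removes introns from newly made transcripts and joins the exons. The spliceosome that does this is built on each intron from small nuclear ribonucleoproteins (snRNPs), in which a small nuclear RNA is held by a ring of Sm proteins and carries further proteins of its own. SR proteins bind exons through RNA recognition motifs and recruit the spliceosome through domains rich in arginine and serine, while hnRNP proteins coat nascent transcripts and often oppose the use of nearby splice sites. Many SR and hnRNP genes also contain exons whose inclusion leads to decay of their own transcript, by which the proteins hold their own level. In endothelial cells alternative splicing sets, among other things, which forms of fibronectin are made. The roles given below are known from human or yeast proteins.

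Values are FPKM, fragments scaled for transcript length and library depth, summed over the transcripts of a gene. Of the 65 genes, 63 had a mean of at least 1 FPKM over the libraries and were tested. The other 2, SRSF10 and TRA2A, were listed at 0 in all 6 libraries. Genes were tested together with all 11819 genes that passed the same minimum, with limma on log2(FPKM + 1), and called at an adjusted p under 0.05. Fold changes are ratios of mean FPKM, normal over heat-inactivated serum, and log2 changes are on the log2(FPKM + 1) scale, which understates the change of low genes.

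Splicing factor transcripts were more abundant in normal serum. Of the 63 genes tested, 42 were called higher (66.7%), 1 was called lower (1.59%) and 20 were not called, whereas over all genes tested 27.8% were called higher and 26.1% lower (54.0% in either direction). The median log2 change was 0.32 over the splicing factors, with a range of -1.17 to 0.98 and 58 of 63 above 0, and 0.01 over all genes. The sum of their FPKM was 10364 ± 449 in normal serum and 7666 ± 398 in heat-inactivated serum (SD, n = 3), a ratio of 1.35. The sum over all genes tested had a ratio of 1.10, beside which the ratios of classes below are also to be read. That sum overlapped between the sera, with 979628 to 1.02e+06 FPKM in normal serum and 851612 to 1.01e+06 FPKM in heat-inactivated serum. The splicing factors' share of the library's total FPKM was 1.00%, 1.07% and 1.03% in normal serum, against 0.845%, 0.904% and 0.788% in heat-inactivated serum. At limma's unadjusted p under 0.05, 48 genes were higher and 2 lower (PRPF40B and HNRNPUL1), with 0 lower among the SR, SNRP and SF3 genes. The share of all genes at this unadjusted cut was not counted, here or for the unadjusted counts below. That share cannot be under the 54.0% called in either direction after adjustment. Single changes were moderate. A total of 13 genes were both called and at least 1.5-fold higher on the log2 scale, against 10.9% of all genes, and 1 was 1.5-fold lower, against 10.6%. In 45 genes every normal serum library lay above every heat-inactivated serum library (32.1% of all genes), and in 2, PRPF40B and HNRNPUL1, every one lay below (30.5% of all genes).

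**Figure D1:**
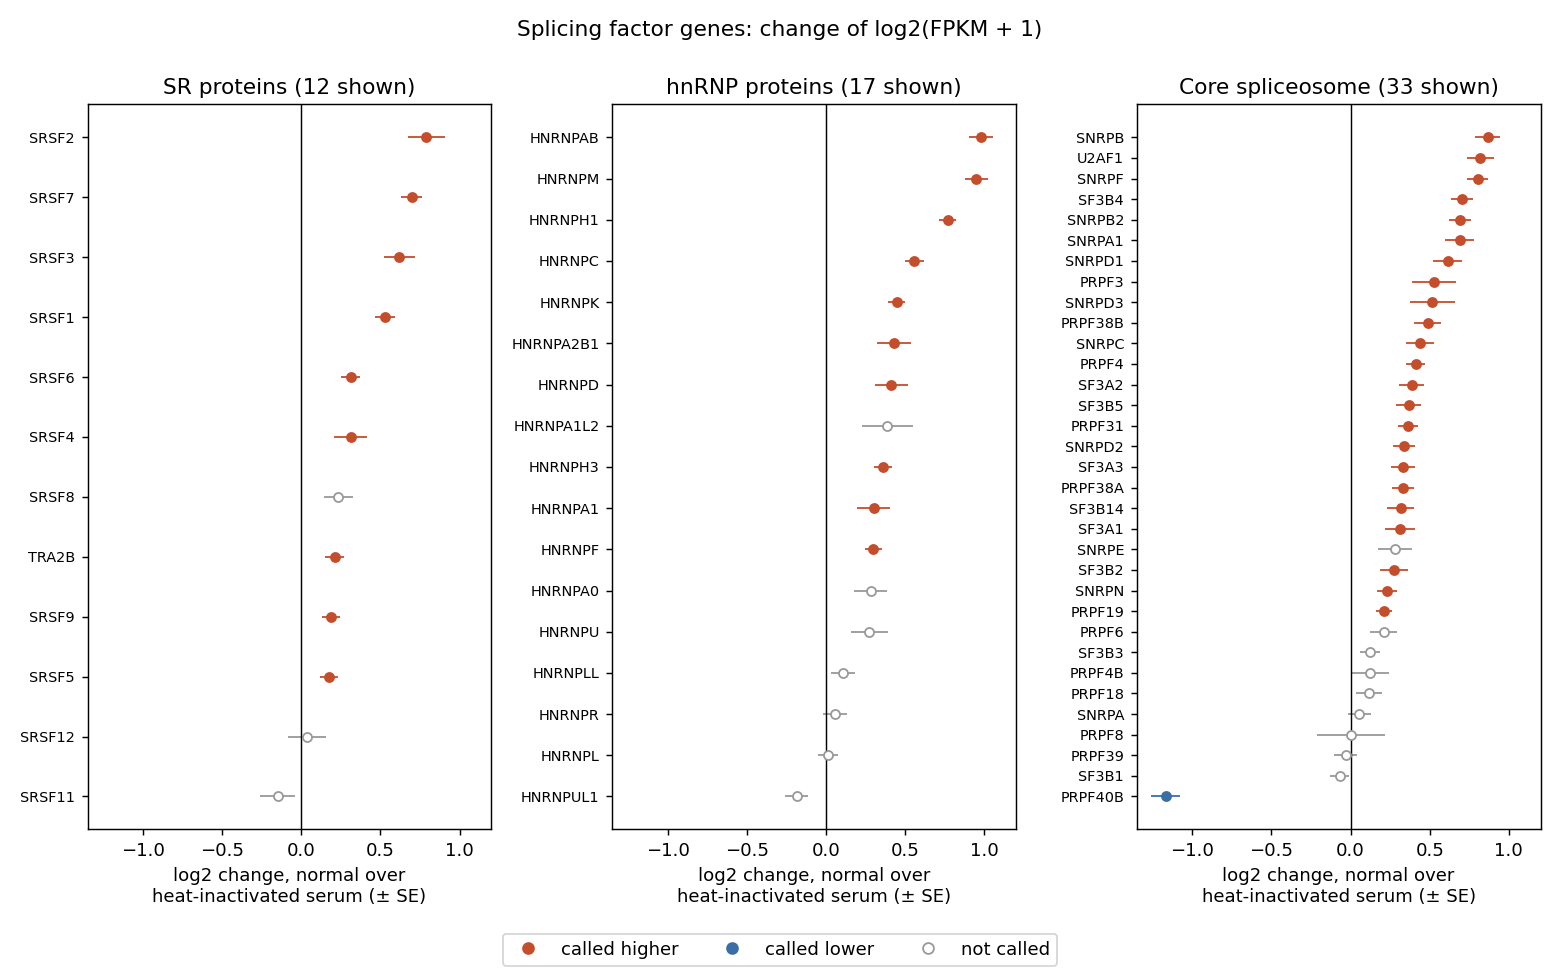
Log2 change of tested splicing factor genes (x axis, log2(FPKM + 1), normal over heat-inactivated serum, ± SE of the limma fit, 3 libraries each), in panels for SR, hnRNP and core spliceosome genes. Filled points are called at an adjusted p under 0.05; 42 lie to the right, from TRA2B, PRPF19, SRSF5, SRSF9 and SNRPN near 0.2 (which turn slightly negative under quantile normalization) to HNRNPAB at 0.98, and PRPF40B lies to the left at -1.17.

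The number of calls depended on how the libraries were scaled, and the direction of the set did not. Under quantile normalization 24 splicing factors were called higher and 4 lower, against 24.3% and 27.1% of all genes. With every library rescaled to the same total FPKM, 20 were called higher and 2 lower, against 16.5% and 31.0% of all genes, and with the total taken without transcripts under 300 bases, 23 were called higher and 4 lower, against 18.3% and 37.1%. Those 2 rescalings moved the median log2 change of all genes to -0.12 and -0.14. Relative to the median of all genes, the splicing factors' median stood 0.31 higher as deposited, 0.29 higher under either rescaling and 0.18 higher under quantile normalization. A rescaling by total FPKM multiplies a whole library by the same factor and shifts nearly all genes alike. It could therefore hardly change this difference, and only quantile normalization could. Under all 3 other scalings 17 genes were called higher: SRSF1, SRSF2, SRSF3, SRSF7, HNRNPAB, HNRNPC, HNRNPH1, HNRNPK, HNRNPM, SNRPA1, SNRPB, SNRPB2, SNRPD1, SNRPF, SF3B4, U2AF1 and PRPF38B.

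**Figure D2:**
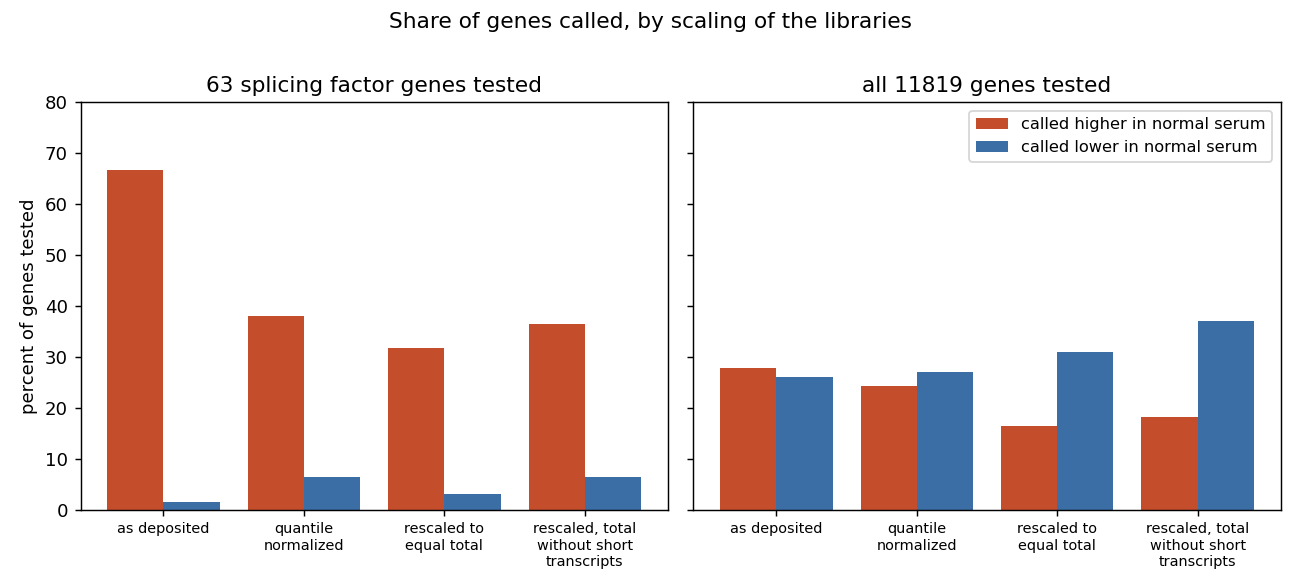
Percent of genes called higher and called lower in normal serum (y axis) under the deposited scale, quantile normalization and 2 rescalings by total FPKM (x axis), for the 63 splicing factor genes tested (left) and all 11819 genes tested (right). Called higher were 66.7%, 38.1%, 31.7% and 36.5% of the splicing factors, against 27.8%, 24.3%, 16.5% and 18.3% of all genes.

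Splicing factors are abundant transcripts, and abundant genes as a whole leaned towards normal serum. Among the 2955 most abundant genes tested (mean of 35.9 FPKM and above), 45.4% were called higher and 15.8% lower, with a median log2 change of 0.18. The 48 splicing factors among them had 36 called higher, 0 called lower (40 and 1 at limma's unadjusted p under 0.05) and a median of 0.35. Under quantile normalization HNRNPL, HNRNPUL1 and SF3B1 from these 48 were called lower. For the other scalings the splicing factors are set against all genes only, not against genes of their own level. By gene length, the median of all genes was 0.08 in genes of up to 1069 bases and -0.06 in genes of 2784 bases and more. Splicing factors showed the same order, with medians of 0.41 over 14 short genes and 0.12 over 7 long ones. Across the 63 genes the log2 change had a Spearman correlation of 0.456 with the level and -0.311 with the length; the genes share the same 6 libraries, and both values are descriptions.

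**Figure D3:**
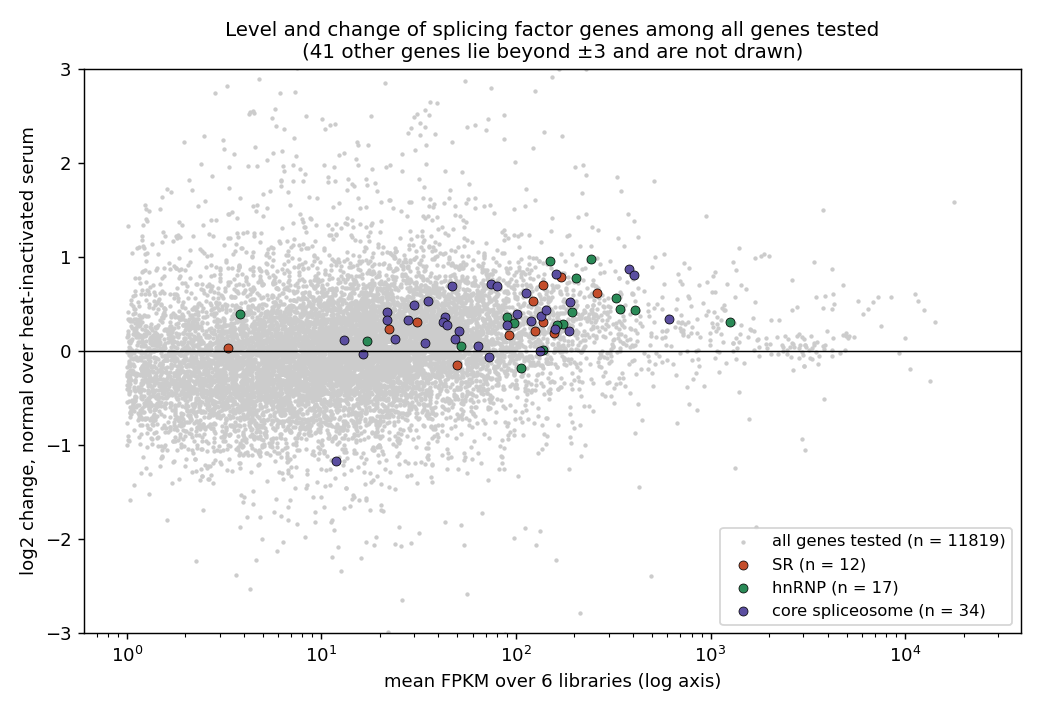
Log2 change, normal over heat-inactivated serum (y axis), against mean FPKM over the 6 libraries (x axis, log scale), for all 11819 genes tested (grey) and the 63 splicing factor genes (coloured by class); 41 other genes beyond ±3 are not drawn. Most splicing factors lie above 0 at levels above 35.9 FPKM, and PRPF40B lies alone near -1.17.

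SR proteins promote exon recognition. Of 12 tested, 9 were called higher (75%), 0 lower, and the median log2 change was 0.27; their summed FPKM was 1509 ± 40.4 in normal serum and 1111 ± 17.0 in heat-inactivated serum (SD, n = 3), a ratio of 1.36. The largest change was that of SRSF2 (SC35), a protein of nuclear speckles, with 254, 201 and 193 FPKM in normal serum and 137, 119 and 116 FPKM in heat-inactivated serum (1.74-fold, log2 change 0.79 ± 0.12 SE, adjusted p = 0.00117). SRSF7, which also takes part in export of messenger RNA, had 164, 181 and 169 FPKM in normal serum, against 98.6, 108 and 110 FPKM in heat-inactivated serum (1.63-fold, 0.70 ± 0.07, adjusted p = 0.000169). SRSF3, the smallest SR protein and the most abundant SR transcript here, had 294, 341 and 309 FPKM in normal serum, against 179, 216 and 220 FPKM in heat-inactivated serum (1.53-fold, 0.62 ± 0.10, adjusted p = 0.00147). In all 3 genes every normal serum library lay above every heat-inactivated serum library. SRSF1 (SF2/ASF), the prototype of the family, had 153, 143 and 137 FPKM in normal serum, against 104, 97.1 and 98.5 FPKM in heat-inactivated serum (1.45-fold, 0.53 ± 0.06, adjusted p = 0.000435).

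The remaining SR genes changed less or were not called. SRSF4, SRSF5, SRSF6, SRSF9 and TRA2B were called higher with log2 changes of 0.17 to 0.31, and under quantile normalization those of SRSF5, SRSF9 and TRA2B turned to between -0.05 and -0.01 and were not called. SRSF11 (p54) had 41.3, 46.6 and 54.5 FPKM in normal serum and 48.6, 57.5 and 51.4 FPKM in heat-inactivated serum (log2 change -0.15 ± 0.11 SE, adjusted p = 0.292), and the groups overlapped. SRSF8, whose sequence is close to that of SRSF2 (0.23, adjusted p = 0.0668), and SRSF12 (0.03, adjusted p = 0.827) were not called, and SRSF12 rested on about 30 fragments per library. Without the normal serum replicate 2 library, 5 SR genes were called higher, and 4 were called higher under each other scaling.

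Proteins of the hnRNP class bind nascent and nuclear RNA and act on splice site choice, packaging and export. Of 17 tested, 10 were called higher (58.8%), 0 lower, and the median log2 change was 0.36; under quantile normalization 7 were called higher and 2 lower (HNRNPL and HNRNPUL1). Their summed FPKM was 4533 ± 216 in normal serum and 3402 ± 257 in heat-inactivated serum (SD, n = 3), a ratio of 1.33. HNRNPAB, which binds RNA and also single-stranded DNA, had the largest log2 change among the 63 genes, with 336, 326 and 309 FPKM in normal serum and 149, 172 and 171 FPKM in heat-inactivated serum (1.98-fold, 0.98 ± 0.07 SE, adjusted p = 5.3e-05). HNRNPM, a regulator of alternative exons, had 199, 204 and 191 FPKM in normal serum, against 92.7, 106 and 108 FPKM in heat-inactivated serum (1.94-fold, 0.95 ± 0.07, adjusted p = 6.06e-05). For both genes the lowest normal serum library was far above the highest heat-inactivated serum library. HNRNPH1, which binds runs of guanines, had 249, 261 and 259 FPKM in normal serum, against 145, 154 and 150 FPKM in heat-inactivated serum (1.71-fold, 0.77 ± 0.05, adjusted p = 3.93e-05). HNRNPC, which binds uridine tracts, had 380, 408 and 384 FPKM in normal serum, against 251, 264 and 280 FPKM in heat-inactivated serum (1.47-fold, 0.56 ± 0.06, adjusted p = 0.000328).

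HNRNPA1, which represses exons and shuttles between nucleus and cytoplasm, was the most abundant of the 65 genes. It had 1276, 1518 and 1377 FPKM in normal serum and 975, 1185 and 1228 FPKM in heat-inactivated serum (1.23-fold, log2 change 0.30 ± 0.10 SE, adjusted p = 0.0429). The groups did not overlap, but the call was lost in 9 of 20 alternatives, all 3 other scalings among them, and HNRNPA1 has near-identical copies, HNRNPA1L2 included, between which fragments may have been split. HNRNPUL1, an HNRNPU-like protein with a part in the response to DNA breaks, had 92.3, 99.7 and 104 FPKM in normal serum and 105, 115 and 118 FPKM in heat-inactivated serum (log2 change -0.18 ± 0.07, adjusted p = 0.0645). Its normal serum libraries all lay below the others, and it was called lower under each other scaling. The other called genes, HNRNPK, HNRNPA2B1, HNRNPD, HNRNPH3 and HNRNPF, had log2 changes of 0.30 to 0.45. HNRNPA0, HNRNPA1L2 (about 20 fragments per library), HNRNPL, HNRNPLL, HNRNPR and HNRNPU were not called, with log2 changes of 0.01 to 0.39.

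Core spliceosome genes included 23 called higher of 34 tested (67.6%) and 1 called lower (2.94%), with a median log2 change of 0.33 and a summed FPKM of 4323 ± 212 in normal serum and 3153 ± 128 in heat-inactivated serum (SD, n = 3). Under the other scalings 10 to 13 were called higher and 1 or 2 lower. The SNRP genes, for Sm proteins and proteins of single snRNPs, had 9 of 11 called higher, 0 lower and a median of 0.52, and their summed FPKM was 2664 ± 159 in normal serum and 1819 ± 70.4 in heat-inactivated serum, a ratio of 1.46. SNRPB, which encodes the Sm proteins B and B′, had 532, 506 and 443 FPKM in normal serum and 263, 281 and 266 FPKM in heat-inactivated serum (1.83-fold, 0.87 ± 0.08 SE, adjusted p = 0.000125). SNRPF, the Sm protein F, had 525, 544 and 481 FPKM in normal serum, against 286, 296 and 305 FPKM in heat-inactivated serum (1.75-fold, 0.80 ± 0.07, adjusted p = 7.35e-05). Both are parts of the ring that all major snRNPs except U6 carry. SNRPD2, another ring protein and the second most abundant of the 65 genes, had 654, 736 and 669 FPKM in normal serum, against 508, 569 and 552 FPKM in heat-inactivated serum (1.26-fold, 0.34 ± 0.07, adjusted p = 0.00582).

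Other SNRP genes encode proteins particular to the U2 or the U1 snRNP. SNRPB2, the B″ protein of the U2 snRNP, had 97.7, 106 and 93.4 FPKM in normal serum and 57.4, 63.1 and 61.7 FPKM in heat-inactivated serum (1.63-fold, log2 change 0.69 ± 0.07 SE, adjusted p = 0.000192). SNRPA1, its partner in the U2 snRNP, had 51.7, 64.3 and 59.0 FPKM in normal serum, against 33.5, 35.8 and 37.8 FPKM in heat-inactivated serum (1.63-fold, 0.69 ± 0.09, adjusted p = 0.000669). SNRPA, a U1 snRNP protein, had 71.4, 63.8 and 59.9 FPKM in normal serum and 63.2, 61.3 and 62.7 FPKM in heat-inactivated serum (log2 change 0.06 ± 0.07, adjusted p = 0.554), and its groups overlapped; the difference between these genes was not tested. SNRPD1, SNRPD3, SNRPC and SNRPN were called higher with log2 changes of 0.23 to 0.61, that of SNRPN (close in sequence to SNRPB) turning to -0.0006 under quantile normalization, and SNRPE was not called (0.28, adjusted p = 0.0571).

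The SF3A and SF3B proteins belong to the U2 snRNP and hold it at the branch point of the intron. Of 9 genes, 7 were called higher, 0 lower, with a median log2 change of 0.32, and SF3B1 was called lower under quantile normalization and under the rescaling without short transcripts. SF3B4 had 99.4, 93.1 and 86.3 FPKM in normal serum and 58.1, 57.4 and 53.9 FPKM in heat-inactivated serum (1.65-fold, 0.71 ± 0.07 SE, adjusted p = 0.000185). SF3A2 (1.31-fold, 0.39 ± 0.08, adjusted p = 0.00475) had 127, 110 and 108 FPKM in normal serum, against 90.7, 89.1 and 82.3 FPKM in heat-inactivated serum. Its complex partner SF3A3 had 23.7, 25.4 and 23.9 FPKM in normal serum, against 18.6, 18.0 and 20.8 FPKM in heat-inactivated serum (1.27-fold, 0.33 ± 0.07, adjusted p = 0.00681). All 3 genes had separate groups. SF3B5, the most abundant SF3 transcript, had 168, 154 and 136 FPKM in normal serum, against 119, 116 and 119 FPKM in heat-inactivated serum (1.30-fold, 0.37 ± 0.08, adjusted p = 0.00676). SF3B1, the large subunit at the branch point, had 66.3, 73.6 and 71.9 FPKM in normal serum and 73.6, 73.9 and 74.5 FPKM in heat-inactivated serum (log2 change -0.07 ± 0.06, adjusted p = 0.364). SF3A1, SF3B2 and SF3B14 were called higher at 0.27 to 0.32, and SF3B3 was not called (0.13, adjusted p = 0.133).

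U2AF1, the small subunit of the U2 auxiliary factor that reads the last bases of the intron, had 216, 214 and 189 FPKM in normal serum and 109, 129 and 112 FPKM in heat-inactivated serum (1.77-fold, log2 change 0.82 ± 0.09 SE, adjusted p = 0.000237). Every normal serum library lay well above every heat-inactivated serum library, and the call held in all 20 alternatives. Differences between the SR, hnRNP and core classes were not tested.

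The PRPF genes are named for yeast pre-mRNA processing mutants, and PRPF3, PRPF4, PRPF6, PRPF8 and PRPF31, proteins of the U4/U6 and U5 snRNPs, are also known as genes mutated in human retinitis pigmentosa. Of 13 tested, 6 were called higher (46.2%) and 1 lower (7.69%), with a median log2 change of 0.21. The share called higher was near the 45.4% of the 2955 most abundant genes, whose median log2 change was 0.18. PRPF4 had 24.4, 24.6 and 26.0 FPKM in normal serum and 18.9, 18.8 and 17.9 FPKM in heat-inactivated serum (1.35-fold, 0.41 ± 0.06 SE, adjusted p = 0.00109). PRPF31 had 49.8, 50.6 and 45.2 FPKM in normal serum, against 36.6, 38.6 and 37.2 FPKM in heat-inactivated serum (1.30-fold, 0.36 ± 0.06, adjusted p = 0.00267). PRPF3, with the largest log2 change of the PRPF genes called higher, had 35.1, 46.4 and 43.6 FPKM in normal serum, against 23.7, 31.3 and 31.0 FPKM in heat-inactivated serum (1.45-fold, 0.53 ± 0.14, adjusted p = 0.0145). In PRPF3 the replicate 1 library was the lowest of each group. PRPF38B, a relative of yeast Prp38, had 31.1, 36.5 and 37.4 FPKM in normal serum, against 23.7, 25.8 and 24.4 FPKM in heat-inactivated serum (1.42-fold, 0.49 ± 0.08, adjusted p = 0.00227).

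PRPF40B was the one splicing factor gene called lower on the deposited scale. It is a counterpart of yeast Prp40, a U1 snRNP protein that bridges the ends of the intron. It had 6.06, 7.07 and 7.81 FPKM in normal serum and 16.3, 16.9 and 17.4 FPKM in heat-inactivated serum (0.414-fold, log2 change -1.17 ± 0.09 SE, adjusted p = 6.85e-05), and the call held in all 20 alternatives. PRPF19, the ubiquitin ligase of the complex that bears its name and the most abundant PRPF transcript, had 199, 208 and 199 FPKM in normal serum and 177, 175 and 171 FPKM in heat-inactivated serum (1.16-fold, 0.21 ± 0.05, adjusted p = 0.0111), and its log2 change was -0.04 under quantile normalization. PRPF38A was called higher (0.33), and PRPF4B, PRPF6, PRPF8, PRPF18 and PRPF39 were not called, with log2 changes of -0.03 to 0.21.

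**Figure D4:**
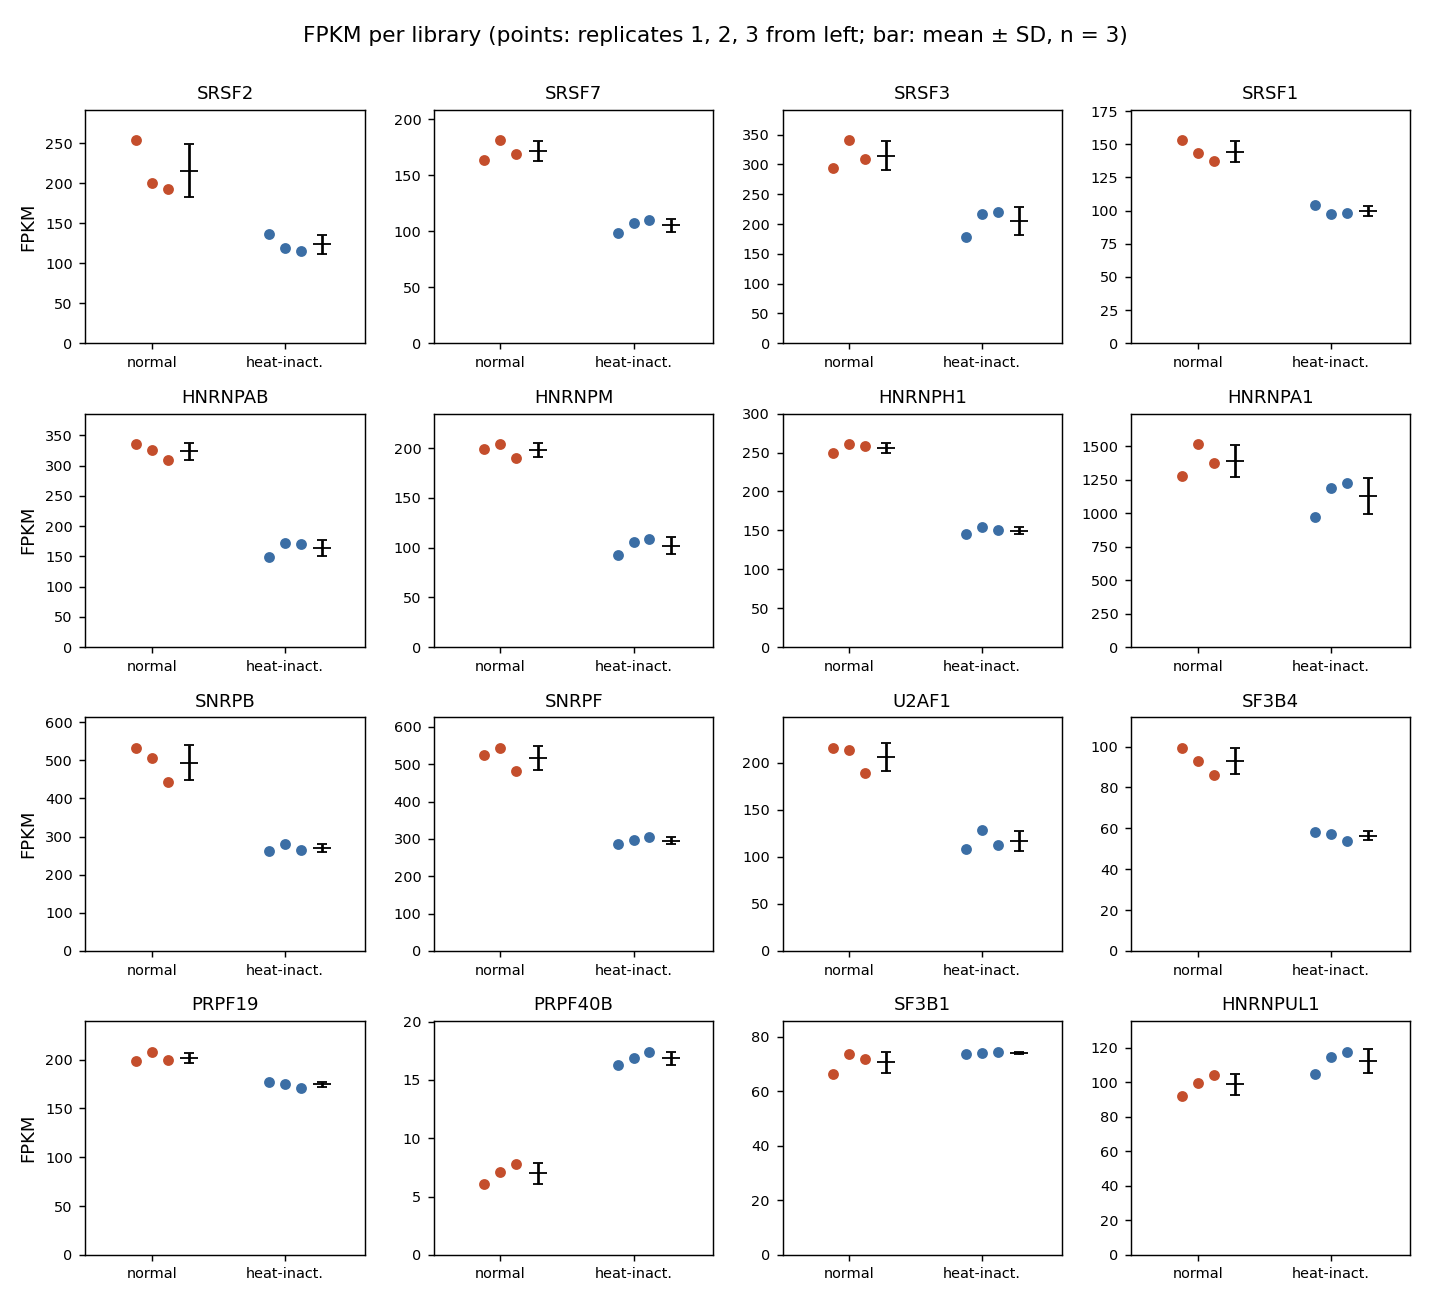
FPKM per library (y axis, from 0) of 16 splicing factor genes in normal serum (left of each panel) and heat-inactivated serum (right); points are the 3 replicates and the bar is mean ± SD. In 13 panels called higher, from SRSF2 to PRPF19 (whose direction turns under quantile normalization), all points on the left lie above those on the right; PRPF40B lies between 6.06 and 7.81 on the left and between 16.3 and 17.4 on the right.

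The table lists 138 transcripts for the 65 genes, 15 of them at 0 in every library. Of 105 tested, 51 were called higher, against 21.0% of all transcripts tested, and 3 were called lower, against 18.6%. The 3 were both PRPF40B transcripts and the transcript of 6948 bases of PRPF8, the large U5 protein at the heart of the spliceosome. That PRPF8 transcript had 81.2, 80.8 and 83.9 FPKM in normal serum and 93.5, 91.7 and 93.2 FPKM in heat-inactivated serum (log2 change -0.18 ± 0.05 SE, adjusted p = 0.0247). Its groups were separate, and with replicates 2 and 3 only it was not called (adjusted p = 0.08). The gene's sum was not called (log2 change 0.0004), and a transcript of 395 bases had 18.3, 63.0 and 73.0 FPKM in normal serum and 5.32, 54.7 and 61.9 FPKM in heat-inactivated serum, low in replicate 1 of both sera.

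Shares between transcripts of a gene were uneven in some cases, all named here after their values were seen. TRA2B, an SR-related protein that binds exonic enhancers, had 2 transcripts with opposite signs. Its transcript of 1990 bases had 111, 114 and 98.6 FPKM in normal serum and 78.7, 72.4 and 81.4 FPKM in heat-inactivated serum (log2 change 0.47 ± 0.08 SE, adjusted p = 0.00494), while that of 838 bases had 3.85, 0 and 8.21 FPKM in normal serum and 13.2, 16.5 and 12.7 FPKM in heat-inactivated serum (-2.09 ± 0.77, adjusted p = 0.0755) and was not called. The shorter transcript averaged 3.01% of the gene's FPKM in normal serum and 12.2% in heat-inactivated serum. In SRSF2 the transcripts of 1706 bases (0.91, adjusted p = 0.00156) and 1360 bases (0.77, adjusted p = 0.0318) were called higher, and that of 2722 bases was not called (0.20, adjusted p = 0.158). In SRSF6 the transcript of 1538 bases was called higher (0.38, adjusted p = 0.00489) and that of 829 bases was not (-0.002, adjusted p = 0.988). In HNRNPAB the transcript of 1692 bases had 119, 120 and 114 FPKM in normal serum and 46.9, 55.0 and 52.1 FPKM in heat-inactivated serum (1.18, adjusted p = 0.000167), while that of 1814 bases had 88.3, 15.1 and 10.8 FPKM in normal serum and 58.2, 12.5 and 14.0 FPKM in heat-inactivated serum, high in replicate 1 of both sera. The transcript of 1735 bases averaged 52.2% of the gene's FPKM in normal serum and 50.5% in heat-inactivated serum. It had 128, 192 and 184 FPKM in normal serum and 44.1, 104 and 105 FPKM in heat-inactivated serum, low in replicate 1 of both sera. By limma it was not called (1.07, adjusted p = 0.0585). The sums over all HNRNPAB transcripts were 336, 326 and 309 FPKM in normal serum and 149, 172 and 171 FPKM in heat-inactivated serum. In these sums replicate 1 was the highest library in normal serum and the lowest in heat-inactivated serum.

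**Figure D5:**
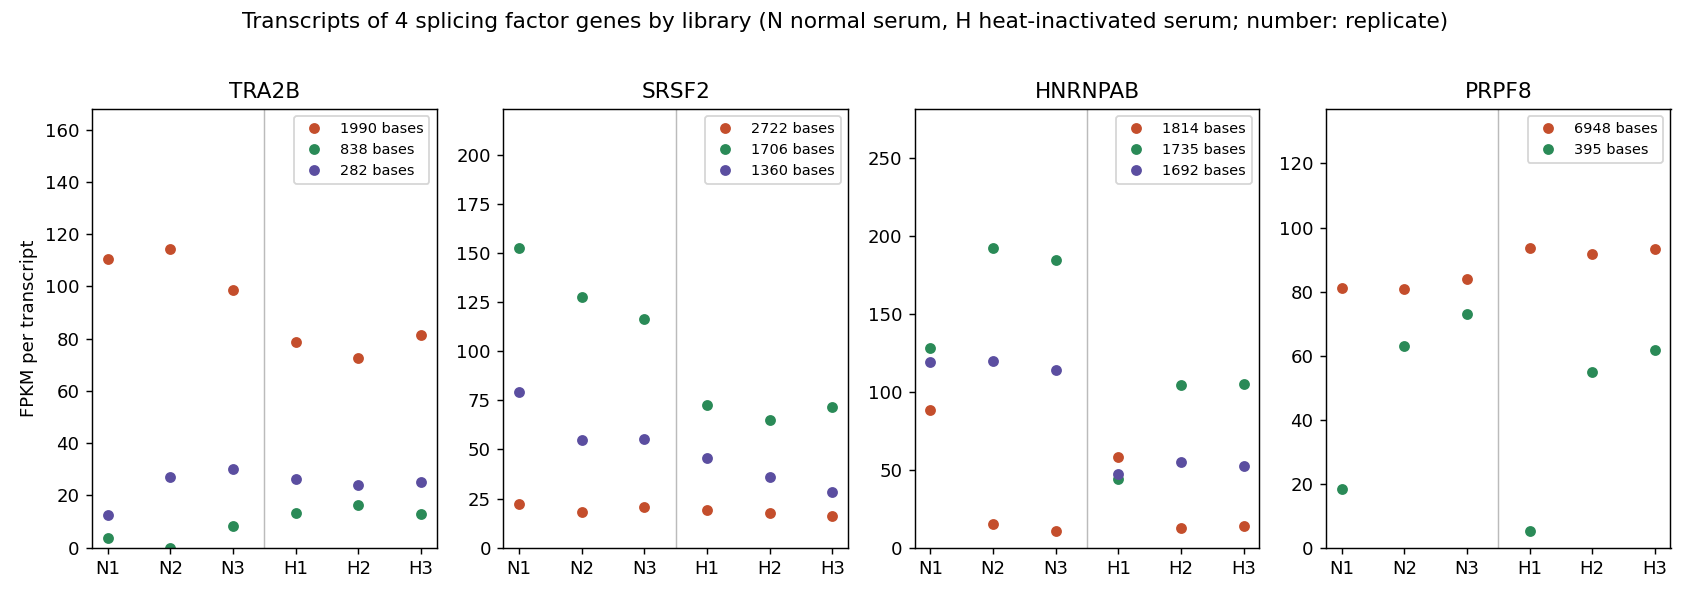
FPKM per transcript (y axis, from 0) of TRA2B, SRSF2, HNRNPAB and PRPF8 in each library (x axis, N normal serum, H heat-inactivated serum, with the replicate number), coloured by transcript length in bases. The TRA2B transcript of 838 bases lies between 0 and 8.21 in N and between 12.7 and 16.5 in H, and the HNRNPAB transcript of 1814 bases and the PRPF8 transcript of 395 bases set replicate 1 apart in both sera.

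In the authors' deposited table, 105 of the splicing factor transcripts had an accepted test, and 51 of these (48.6%) had a q-value under 0.05 with a higher and 2 (1.90%) with a lower level in normal serum, against 20.6% and 20.5% of all transcripts with an accepted test. A total of 4 carried all 3 of the authors' marks of change in the authors' deposited table, 3.81% against 6.63% of all such transcripts. By the authors' deposited table these were the HNRNPAB transcript of 1692 bases (log2 fold change 1.19), the HNRNPM transcript of 2455 bases (1.08) and the PRPF40B transcripts of 2699 bases (-1.05) and 800 bases (-1.60).

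Other genes of the splicing pathway, which the symbol rule leaves out, were also called higher more often than lower. Of 141 listed, 130 were found and 119 tested. Of these, 64 were called higher (53.8%) and 7 lower (5.88%), with a median log2 change of 0.29. Under the other scalings 33 to 49 were called higher and 10 to 14 lower. Over all genes tested 27.8% were called higher and 26.1% lower, and over the 2955 most abundant 45.4% and 15.8%. The groups below were not compared with genes of their own level. Of the kinases that phosphorylate SR proteins, 4 of 6 were called higher and 0 lower by limma (4 and 0 at an unadjusted p under 0.05). CLK1 had 38.6, 55.1 and 45.0 FPKM in normal serum and 29.4, 27.7 and 28.3 FPKM in heat-inactivated serum (1.63-fold, log2 change 0.67 ± 0.12 SE, adjusted p = 0.00282). CLK4 (1.42-fold, adjusted p = 0.00397) and SRPK1 (1.28-fold, adjusted p = 0.00396) were also called higher, SRPK1 not under either rescaling by total FPKM. Among snRNP proteins under other symbols, listed together with LSM proteins and associated factors, 14 of 21 were called higher and 0 lower by limma (15 and 0 at an unadjusted p under 0.05). PHF5A, an SF3B subunit, had 155, 148 and 142 FPKM in normal serum, against 80.5, 88.2 and 74.2 FPKM in heat-inactivated serum (1.83-fold, 0.87 ± 0.08, adjusted p = 0.000112), and LSM3, of the ring on U6, and the branch point protein SF1 were 1.5-fold and 1.33-fold higher.

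Helicases and step factors of the spliceosome had 13 of 28 called higher (46.4%) and 2 lower (7.14%). The share called higher was near the 45.4% of the 2955 most abundant genes. RBM22, an RNA-binding protein of the active spliceosome, had 37.9, 39.2 and 38.0 FPKM in normal serum and 21.5, 23.2 and 24.1 FPKM in heat-inactivated serum (1.67-fold, log2 change 0.72 ± 0.06 SE, adjusted p = 0.000115), and the helicase DHX15 was 1.48-fold higher (adjusted p = 0.000177). DDX17, a DEAD-box helicase and transcription coregulator, fell to 59.0, 58.2 and 68.0 FPKM in normal serum, against 100.1, 97.6 and 93.1 FPKM in heat-inactivated serum (0.637-fold, -0.65 ± 0.08, adjusted p = 0.000378), and CDC40 was the other gene called lower (-0.28, adjusted p = 0.0273). Regulators of splice site choice, with other RNA-binding proteins listed beside them, were the most mixed of the larger groups. They had 17 of 37 called higher (45.9%), 3 lower (8.11%) and a median of 0.17. Here too the share called higher was near that of the most abundant genes. PTBP1, the polypyrimidine tract protein that represses many alternative exons, had 333, 341 and 364 FPKM in normal serum and 168, 176 and 178 FPKM in heat-inactivated serum (1.99-fold, 0.99 ± 0.06, adjusted p = 1.98e-05). RBM4 (1.41-fold) also rose, as did SRRT (1.66-fold), one of the other proteins listed. The 3 called lower were MBNL2 (0.534-fold, -0.84), CIRBP (-0.31) and RBM5 (-0.27), named after their values were seen.

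The first principal component over the tested genes held 61.0% of the variance and separated the sera, and the second, with 13.3%, set replicate 1 of both sera apart; with replicates 2 and 3 only, 44 splicing factors were called higher and 2 lower. Depth, read from the lowest values as whole fragments, was between 14600000 and 17700000 fragments in replicates 2 and 3 and is approximate in replicate 1 (13700000 in normal serum and 15900000 in heat-inactivated serum). Of 12 endothelial markers, 5 reached the test and 4 were called higher. The summed FPKM of the 12 was 103 to 111 in normal serum and 79.3 to 80.6 in heat-inactivated serum, most of it ENG. Those tested were PECAM1 (7.95 ± 0.634 FPKM in normal serum and 3.35 ± 0.288 FPKM in heat-inactivated serum, SD, n = 3), ENG (74.2 ± 6.31 FPKM in normal serum and 61.2 ± 0.309 FPKM in heat-inactivated serum), ESAM, FLI1 and, not called, EGFL7. CDH5, which defines endothelium, was at most 0.0185 FPKM in normal serum and was listed at 0 in all 3 heat-inactivated serum libraries, and KDR, TEK, TIE1, CLDN5 and ERG were below 0.5 FPKM in every library, so the endothelial markers were detected in part. Markers too low to test differed in direction. Mean FPKM in normal and heat-inactivated serum was 0.105 and 0.370 for KDR, 0.0457 and 0.0930 for TEK, and 1.05 and 0.172 for VWF. Of 9 mural and fibroblast markers tested, 8 were called lower and TAGLN higher, with a summed FPKM of 4437 to 4658 in normal serum and 7738 to 8260 in heat-inactivated serum. Of pigment epithelium markers only PMEL was tested and was not called, and of 3 leukocyte markers tested 1 (LYZ) was called lower. The part of these marker changes in the splicing factor result was not tested.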

How the data were processed

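Polyadenylated RNA of 3 normal serum and 3 heat-inactivated serum libraries was sequenced, and serum and replicate number come from the labels. The submitters' processing notes name TopHat2 (2.0.7), and Cufflinks and Cuffdiff (both 2.1.1). No genome build is named in the sources used here. FPKM of 44605 transcripts was deposited for each library, as computed by the authors, along with the authors' log2 fold change and q-value per transcript. FPKM of transcripts with one symbol was summed per gene, so near-identical copies and isoforms share their fragments as Cufflinks divided them.

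Genes that averaged 1 FPKM or more were tested with limma 3.58.1 in R 4.3.3 on log2(FPKM + 1), with a trended empirical Bayes variance, no covariate and Benjamini-Hochberg adjustment over all 11819 genes; transcripts were tested the same way. Depth was read from low values of single transcripts, whole within 0.1 fragments for 100% of values in replicates 2 and 3, but for 46.3% (normal serum) and 49.6% (heat-inactivated serum) in replicate 1.

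In each of the SR, hnRNP, SNRP, SF3, U2AF and PRPF groups, the genes given library by library are the 4 called with the smallest adjusted p, the most abundant, and the largest rise and fall. In each group of other splicing genes up to 3 called genes with the smallest adjusted p are named. Other names were chosen after their values were seen, apart from the short account of the remaining members. Single values of a few genes in these lists are not reported here. The symbol rule uses no measured value, but the choice to examine these families, and the lists, were made with earlier results of these data known. Sequences of proteins and promoters were not used here. Alternatives varied the scaling, pseudocount, filter, variance model, transcript summing, a replicate term and the libraries included; removal of a length trend and the rescaling without transcripts under 300 bases were chosen after seeing the data.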

Additional observations from a re-analysis of the deposited data

How the results depend on the processing

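Of 43 called splicing factor genes, 18 kept their call in all 20 alternatives: PRPF40B, and the 17 genes called higher under all 3 other scalings. The cause of the differences between scalings was not tested. Rescaling to the same total FPKM left 1952 of all genes higher, 20 splicing factors higher and 2 lower, 4 SR, 6 hnRNP and 10 core genes higher, 1 hnRNP gene lower and 33 other splicing genes higher. The same without transcripts under 300 bases gave 2157 of all genes higher, 23 splicing factors higher and 4 lower, 4 SR, 6 hnRNP and 13 core genes higher, 2 hnRNP and 2 core genes lower, and 42 other splicing genes higher and 14 lower. Quantile normalization gave 24 splicing factors higher and 4 lower, 4 SR and 13 core genes higher, and 2 hnRNP and 2 core genes lower. HNRNPUL1 was called lower beside PRPF40B (2 splicing factors lower, 1 of them hnRNP) with a term for the replicate 1 libraries and with replicates 2 and 3 only, and PRPF8 (2 core genes lower) when each gene was represented by its most abundant transcript. With the replicate block, 48 splicing factors were called higher, 42 of them the same genes, and 2 lower (1 hnRNP). Deviations of same-numbered libraries correlated at 0.193, 0.0328 and 0.00689, and replicates 2 and 3 did not correlate best with their own number, so the numbers were not taken as pairs; the replicate 1 libraries of both sera did stand apart together, as the report gives.

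Leaving out 1 library gave 33 to 43 splicing factors higher and 1 to 2 lower, 5 to 8 SR genes higher and 0 to 1 hnRNP genes lower, the fewest SR genes without the normal serum replicate 2. Over all 11819 genes tested, 2808 to 3069 were called higher and 2561 to 2874 lower. Log2 changes of uncalled genes that turned sign in this way ranged from -0.029 to 0.0591 (HNRNPL), -0.0797 to 0.0225 (PRPF39), -0.201 to 0.197 (PRPF8), -0.0131 to 0.112 (SNRPA) and -0.039 to 0.137 (SRSF12).

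Quantile normalization turned the log2 changes of HNRNPL (-0.217), HNRNPR (-0.104), PRPF19 (-0.0437), PRPF8 (-0.208), SF3B3 (-0.029), SNRPA (-0.123), SNRPN (-0.0006), SRSF5 (-0.0086), SRSF9 (-0.0459) and TRA2B (-0.0322). Rescaling to the same total, and the same without short transcripts, turned HNRNPL (-0.131 and -0.158), HNRNPLL (-0.0303 and -0.056), HNRNPR (-0.0852 and -0.112), PRPF18 (-0.0167 and -0.0424), PRPF4B (-0.0146 and -0.041), PRPF8 (-0.143 and -0.171), SF3B3 (-0.0165 and -0.0435), SNRPA (-0.0874 and -0.115) and SRSF12 (-0.0776 and -0.0976). With replicates 2 and 3 only, HNRNPL (-0.0519), PRPF39 (0.0382), PRPF8 (-0.0048), SNRPA (-0.0039) and SRSF12 (-0.003) turned, as did PRPF8 with the most abundant transcript (-0.177), and SF3B1 (0.01) and SRSF12 (-0.0124) with the length trend removed. In 5 simulated sets of 11819 genes with 200 changed between the sera, limma recovered 66.0% of genes changed 1.5-fold. It recovered 16.4% of those given the smallest change, a log2 change of 0.32. In the data 54.0% of genes were called, so a call needed a smaller unadjusted p in the simulated sets than in the data. The recovered shares therefore do not carry over to the splicing factors. Genes not called may still differ.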

Other observations

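The groups below are part of the 119 other splicing genes already counted in the report, and were not described there singly. In each of these groups more genes were called higher than lower. Over all genes tested 27.8% were called higher and 26.1% lower, and over the 2955 most abundant 45.4% and 15.8%. Of the snRNP assembly genes, which load Sm proteins onto small nuclear RNA, 9 of 14 tested were called higher and 1 lower, with a median log2 change of 0.30. WDR77, which with an arginine methyltransferase modifies Sm proteins, had 53.8, 55.9 and 55.2 FPKM in normal serum and 26.9, 28.1 and 23.7 FPKM in heat-inactivated serum (2.1-fold, log2 change 1.04 ± 0.07 SE, limma adjusted p = 4.26e-05). SMN1, the survival of motor neuron protein, had 73.1, 84.0 and 84.2 FPKM in normal serum, against 49.4, 53.8 and 51.9 FPKM in heat-inactivated serum (1.56-fold, adjusted p = 0.000411), and its complex partner GEMIN4 was 1.57-fold higher (adjusted p = 0.000313). GEMIN8, named after its values were seen, fell to 6.92, 6.78 and 6.37 FPKM in normal serum, against 9.32, 10.5 and 10.8 FPKM in heat-inactivated serum (log2 change -0.54, adjusted p = 0.00112).

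The exon junction complex, which marks joined exons, had 4 of 6 genes called higher and 0 lower by limma (4 and 0 at an unadjusted p under 0.05), with a summed FPKM of 720 ± 40.7 in normal serum and 443 ± 31.3 in heat-inactivated serum (SD, n = 3). MAGOH had 156, 156 and 148 FPKM in normal serum, against 73.6, 84.5 and 83.2 FPKM in heat-inactivated serum (1.91-fold, adjusted p = 5.41e-05). RBM8A, its binding partner, had 249.6, 295 and 255 FPKM in normal serum, against 124, 149 and 153 FPKM in heat-inactivated serum (1.88-fold, adjusted p = 0.000304), and RNPS1 was 1.49-fold higher. Of the nonsense-mediated decay genes, 3 of 7 were called higher (42.9%), among them UPF1 (1.41-fold) and SMG5 (1.36-fold). That share lay between those of all genes tested (27.8%) and of the most abundant genes (45.4%). SMG6, named after its values were seen, was called lower (log2 change -0.42, adjusted p = 0.00681).

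Some genes without a symbol in the deposited table carry a splicing factor name in a table of gene names, and were not counted above. HNRNPA3 had 186, 216 and 208 FPKM in normal serum and 125, 158 and 158 FPKM in heat-inactivated serum (log2 change 0.47 ± 0.11 SE, adjusted p = 0.00771). U2AF2, the large partner of U2AF1, had 145, 151 and 142 FPKM in normal serum, against 113, 110 and 109 FPKM in heat-inactivated serum (0.40 ± 0.05, adjusted p = 0.000667). A second SNRPD2 locus of 357 bases was not called (0.56 ± 0.27, adjusted p = 0.121).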
